A study of Homo sapiens with 18 samples.

Results

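The 30 genes described here make cholesterol and fatty acids or control how much of them a cell makes. They were chosen by symbol, as genes of the SREBP pathway, by a rule that uses no measured value but was set with earlier results of these data known. They are a group of 5 regulators with a sterol carrier among them (*SREBF1*, *SREBF2*, *SCAP*, *INSIG1* and *STARD4*), 7 genes of the mevalonate branch, 11 of the sterol branch and 7 of fatty acid synthesis and desaturation. All 30 were found among the 26941 genes of the count tables, and all 30 passed the filter on low counts in every comparison.

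RNA was sequenced from 18 samples of REH, 697 and RCH-ACV, established lines of precursor B-cell leukemia (BCP-ALL). REH represents the ETV6-RUNX1 (E/R) subtype. In each line 3 samples were nucleofected with siRNA against *SOX11*, a transcription factor of the SoxC family, and 3 with a non-specific control siRNA, both at 300 nM, and total RNA was taken 48 h later. Every sample was therefore a transfected culture in medium with fetal bovine serum, each line is a single established line, and the E/R subtype rests on REH alone.

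The SREBP proteins, made from *SREBF1* and *SREBF2*, are transcription factors that start as precursors in the membrane of the endoplasmic reticulum. When sterols run low, SCAP escorts them to the Golgi, where proteases release the active part, and when sterols are plentiful INSIG1 holds SCAP back. Active SREBP raises the genes of the mevalonate and sterol branches, of fatty acid synthesis, and also *INSIG1* and *SREBF2* themselves, and dividing lymphoblasts use the products for membranes.

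Promoters that answer to SREBP often hold a sterol response element next to the CCAAT word bound by NF-Y. RefSeq promoter windows on GRCh38.p14, from 250 bases before to 50 bases after a gene's start, were matched by symbol to 26 of the 30 genes, all but *ACAT2*, *FDFT1*, *SQLE* and *FASN*. The words searched on both strands were CCAAT, TCACNCCAC and TCACCCCAC, the last being 1 form of the one before it. CCAAT was in the windows of 20 of the 26 genes (76.9%), against 39.7% of the 27305 genes with a window. TCACNCCAC was in 1 of the 26 (3.85%), *SREBF2*, as TCACCCCAC, against 1.39% of all genes for TCACNCCAC and 0.535% for TCACCCCAC. Of the genes that rose in RCH-ACV, below, 9 of 10 with a window held CCAAT, and of the other members 11 of 16 did. These matches describe letters in a window of fixed length, and no binding was measured. The 250 bases before the start are printed for 4 genes on which the results below turn, with the words, or their reverse complement on the other strand, in capitals. *SREBF2* (chr22:41832855-41833104, plus strand) is shown for its response element word, which begins at -133 from the start. *INSIG1* (chr7:155297628-155297877, plus strand) and *DHCR7* (chr11:71448394-71448643, minus strand, the one of its 2 windows with more of the words) are the genes that rose most clearly in RCH-ACV. *EBP* (chrX:48521558-48521807, plus strand) is a further gene that rose in RCH-ACV. It holds 3 CCAAT words, a number that was not compared between the genes.
SREBF2: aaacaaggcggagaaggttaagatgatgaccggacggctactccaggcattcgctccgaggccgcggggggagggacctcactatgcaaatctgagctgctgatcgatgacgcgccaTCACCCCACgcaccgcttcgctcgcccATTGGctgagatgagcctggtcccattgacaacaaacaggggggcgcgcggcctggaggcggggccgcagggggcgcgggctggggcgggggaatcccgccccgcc
INSIG1: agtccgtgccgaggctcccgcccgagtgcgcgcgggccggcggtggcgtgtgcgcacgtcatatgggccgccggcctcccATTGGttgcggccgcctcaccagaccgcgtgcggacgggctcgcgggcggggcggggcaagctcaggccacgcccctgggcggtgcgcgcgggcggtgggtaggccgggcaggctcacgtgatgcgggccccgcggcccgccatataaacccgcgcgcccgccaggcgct
DHCR7: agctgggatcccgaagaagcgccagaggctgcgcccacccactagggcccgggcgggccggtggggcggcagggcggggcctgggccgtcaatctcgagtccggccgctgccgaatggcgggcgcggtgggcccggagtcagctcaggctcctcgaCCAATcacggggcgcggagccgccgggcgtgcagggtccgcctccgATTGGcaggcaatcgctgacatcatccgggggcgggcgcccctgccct
EBP: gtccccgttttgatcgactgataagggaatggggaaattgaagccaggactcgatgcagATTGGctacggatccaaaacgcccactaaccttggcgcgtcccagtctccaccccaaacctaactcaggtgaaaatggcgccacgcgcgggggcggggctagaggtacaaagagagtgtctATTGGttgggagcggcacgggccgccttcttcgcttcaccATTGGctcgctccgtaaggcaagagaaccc

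The total count per sample lay between 7039594 and 16592492, and the floor of 3 counts that was taken as detection lay between 0.181 and 0.426 CPM, the count of a gene scaled to a common library size. The floor covers counting error only. The 30 genes lay far above it, from 5.5 CPM (*HSD17B7*) to 1081 CPM (*SCD*) over the 18 samples. CPM values carry no correction for transcript length, so levels are compared within a gene and never between genes. Of 8 markers of B-cell precursors, all 8 were at 1 CPM or more in 697 and RCH-ACV and 7 in REH, where *VPREB1* did not pass 0.096 CPM. The 4 T-cell markers and the 4 markers of hepatocytes and adipocytes stayed under 1 CPM in every sample. By the median over a line's samples, 1 of 4 myeloid markers (*MPO* in REH, *CSF1R* in the others) and 1 of 4 stromal markers (*PDGFRB*) passed 1 CPM in each line. The summed level of the B-cell precursor markers was 3897 to 4058 CPM in REH controls and 4311 to 4392 CPM with siRNA, 2231 to 2277 and 2046 to 2106 CPM in 697, and 1995 to 2073 and 2019 to 2169 CPM in RCH-ACV. The part of these shifts in the results below was not tested. In 697, control replicate 1 and *SOX11* siRNA replicate 3 stood apart from their replicates, with a chi-square per degree of freedom of 3.57 to 5.18 against 1.61 and 1.81 between the others. In RCH-ACV, *SOX11* siRNA replicate 3 did, with 3.47 and 4.49 against 1.33.

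*SOX11* itself (chr2:5832516-5841517 on hg19), the target of the siRNA, was measured first as a check of the labels. It stood at 98.7, 97.4 and 93.1 CPM in the REH controls and at 47.7, 53.4 and 61.4 CPM with *SOX11* siRNA. The 697 controls had 59.8, 59.8 and 59.3 CPM and the siRNA samples 32.6, 31.7 and 30.9 CPM. RCH-ACV had 124, 136 and 133 CPM in controls and 81.6, 78.8 and 86.8 CPM with siRNA. Every siRNA sample was below every control sample of its line, at 0.564, 0.53 and 0.627 of the control level (for REH, 697 and RCH-ACV in this order; two-sided exact permutation test, p = 0.1 in each line, the smallest that 3 against 3 samples can give). *SOX11* transcript thus remained in all siRNA samples.

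The first question was whether lowering *SOX11* moved the synthesis genes. In RCH-ACV, 11 of the 30 genes rose and none fell (edgeR's quasi-likelihood test, Benjamini-Hochberg adjusted p under 0.05 over all genes tested). DESeq2 called 8 of the 11, without *SREBF2*, *FDPS* and *SCD*, and 582 of all genes, against 973 with edgeR. Of all 12963 genes tested in RCH-ACV, 7.51% were called and 3.59% were called higher. The rises were small, from 0.14 to 0.45 on the log2 scale. The median log2 fold change of the 30 genes was 0.14, against 0.00 over all genes tested, and 28 of the 30 were above 0, against 51.5% of all genes tested. In 16 of the 30 all 3 siRNA samples lay above all 3 controls, and 12.2% of all genes did so. In bulk RNA, a change in the share of cells of a kind and a change in RNA per cell cannot be told apart. The replicates are described as independent biological replicates, so the tests measure the spread between samples of 1 line.

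**Figure D1:**
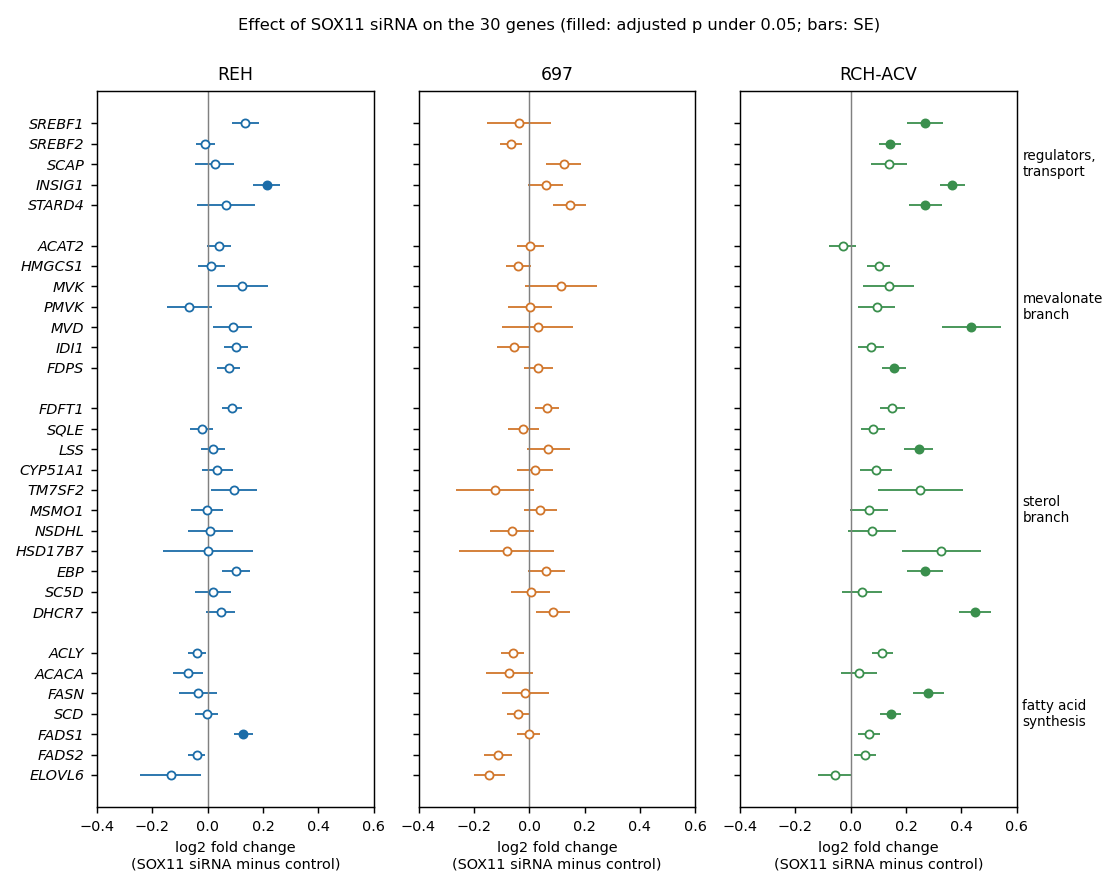
Log2 fold change (*SOX11* siRNA minus control siRNA, horizontal axis) of each of the 30 genes in REH, 697 and RCH-ACV, with its SE as a bar and genes ordered by role. Filled points have an adjusted p under 0.05: 2 in REH, 0 in 697 and 11 in RCH-ACV, all to the right of 0.

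Over all 30 genes, REH had 2 rises, *INSIG1* and *FADS1*, where 4.65% of all 12787 genes tested were called and 2.64% were called higher. The share of 2 in 30 is near that background. The median log2 fold change of the 30 genes in REH was 0.02, against -0.00 for all genes, and in 2 genes (*EBP* and *FADS1*) all siRNA samples were above all controls, against 10.0% of all genes. In 697 none of the 30 passed, where 0.559% of all 12169 genes did. By an unadjusted p under 0.05 there were 3 in 697, a count whose share over all genes is not given here. DESeq2 called 0 of the 30 in 697 and 85 of all genes. The median in 697 was 0.00 for the 30 genes and -0.00 for all genes. Only *STARD4* had all siRNA samples above all controls in 697, against 5.69% of all genes, and 3 genes had them below, against 7.42%.

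**Figure D2:**
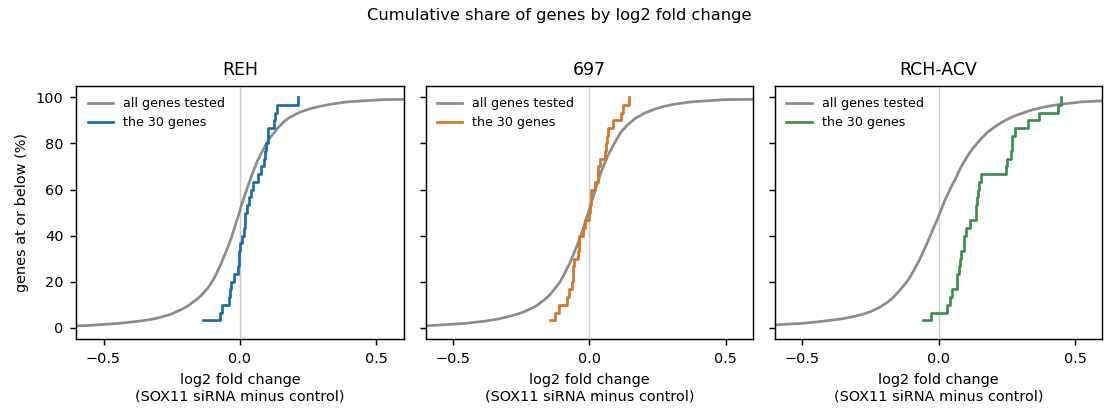
Cumulative share of genes (vertical axis, %) at or below a log2 fold change (*SOX11* siRNA minus control, horizontal axis), for the 30 genes in colour and all genes tested in grey. The curves run close together in 697 and differ most in RCH-ACV, where the medians are 0.14 and 0.00.

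Among the regulators in RCH-ACV, 4 of 5 rose. *INSIG1* (chr7:155089486-155101945 on hg19), which encodes the protein that retains SCAP, stood at 189, 184 and 175 CPM in the controls and at 229, 238 and 240.0 CPM with *SOX11* siRNA. The groups lie well apart, and the log2 fold change was 0.37 ± 0.04 (SE, n = 3 against 3; adjusted p = 0.000104). *STARD4* (chr5:110831731-110848288), whose product carries sterols between membranes, went from 61.7, 60.9 and 57 to 74, 72.9 and 69.3 CPM (log2 fold change 0.27 ± 0.06, adjusted p = 0.0102). *SREBF1* (chr17:17713713-17740316), the gene of the SREBP that favours fatty acid genes, had 189, 162 and 195 CPM in controls and 235, 221 and 202 CPM with siRNA. All its siRNA values were above the highest control, by little for replicate 3, and the log2 fold change was 0.27 ± 0.06 (adjusted p = 0.0181), or 0.16 after correction for transcript GC content. The fit over 18 samples did not call it (adjusted p = 0.0715). *SREBF2* (chr22:42229109-42303310), the gene of the SREBP that favours cholesterol genes, moved from 321, 321 and 317 to 343, 351 and 363 CPM, a small difference between tight groups (0.14 ± 0.04, adjusted p = 0.0355, and 0.0817 with DESeq2). *SCAP* (chr3:47455171-47518616), the escort of the SREBPs, had 93.1, 81.9 and 83.6 CPM in controls and 102, 95.3 and 88.2 CPM with siRNA. These groups overlapped, and the log2 fold change of 0.14 ± 0.06 did not pass (adjusted p = 0.212).

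Of the same 5 regulators, 1 passed in REH and 0 in 697. In REH, *INSIG1* rose, with 366, 319.5 and 317 CPM in controls and 375, 361 and 420.3 CPM with siRNA (0.21 ± 0.05, adjusted p = 0.011), although 1 control lay inside the range of the siRNA samples. In 697 *INSIG1* had 316, 277 and 275 (control) and 288, 292 and 326 (siRNA) CPM, overlapping groups with a log2 fold change of 0.06 ± 0.06. *STARD4* in 697 lay at 101, 98.4 and 90.0 CPM in controls and 106, 108 and 107 CPM with siRNA, all siRNA samples above all controls, but its 0.15 ± 0.06 did not pass (adjusted p = 0.541). In REH, *STARD4* had 27.9, 24.2 and 19.6 (control) and 22.2, 25.8 and 27.8 (siRNA) CPM, with overlapping groups (0.07 ± 0.10). *SREBF2* in 697 had 552, 562 and 555 CPM in controls and 538, 529.9 and 532 CPM with siRNA, with every siRNA sample below every control (-0.06 ± 0.04, adjusted p = 0.789). In REH its values of 345, 368 and 350.0 (control) and 354, 347 and 352 (siRNA) CPM overlapped (-0.01 ± 0.03). *SREBF1* had 132, 150.1 and 143 (control) and 157, 160.1 and 149 (siRNA) CPM in REH (0.14 ± 0.05, adjusted p = 0.115) and 145, 189.8 and 187 (control) and 180.1, 183 and 147 (siRNA) CPM in 697 (-0.04 ± 0.12). Both pairs of groups overlapped, and in 697 the lowest value of each group came from a library that stood apart. After correction for transcript GC content *SREBF1* was called in REH (adjusted p = 0.0159). *SCAP* had 37.1, 40.5 and 42.3 (control) and 42.2, 41.1 and 38 (siRNA) CPM in REH and 113, 113 and 119.6 (control) and 130.2, 128 and 118 (siRNA) CPM in 697, overlapping in both (0.03 ± 0.07 and 0.12 ± 0.06).

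**Figure D3:**
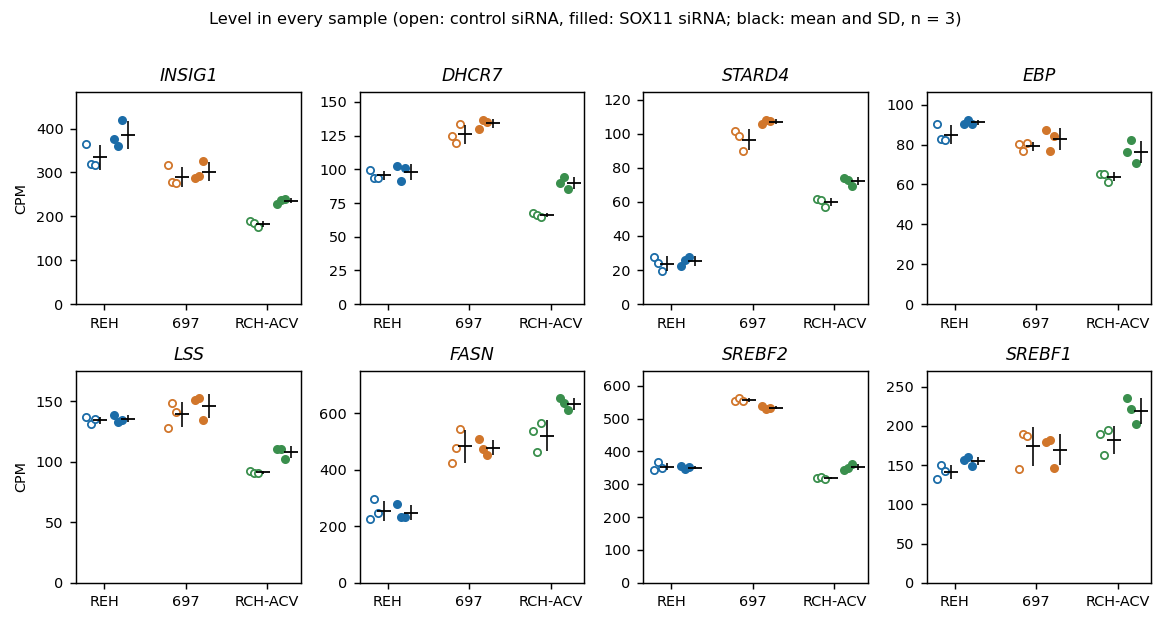
Level in CPM (vertical axis, from 0) of 8 genes in every sample of REH, 697 and RCH-ACV, open points for control siRNA and filled points for *SOX11* siRNA, with mean and SD in black. In RCH-ACV the filled points of all 8 genes lie above the open ones, whereas in REH and 697 most groups overlap.

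The mevalonate branch builds farnesyl diphosphate from acetyl-CoA, and 2 of its 7 genes rose in RCH-ACV. *MVD* (chr16:88718343-88729569), which makes isopentenyl diphosphate, had 28.1, 24.4 and 33.8 CPM in controls and 39.4, 42.8 and 33.7 CPM with siRNA. The groups overlapped slightly, since siRNA replicate 3 lay just under the highest control, and the log2 fold change was 0.44 ± 0.11 (adjusted p = 0.0195). *FDPS* (chr1:155278539-155290457), the farnesyl diphosphate synthase, went from 247, 257 and 238 to 272, 283 and 270.1 CPM without overlap (0.15 ± 0.04, adjusted p = 0.0388). The other 5 did not pass. *HMGCS1*, a synthase of the branch, was at 0.10 ± 0.04, and *MVK* and *PMVK*, its kinases, at 0.14 and 0.09. *IDI1*, the isomerase, was at 0.07 and *ACAT2*, a thiolase, at -0.03 ± 0.05. In REH and 697 none of the 7 passed, and their log2 fold changes lay between -0.07 (*PMVK*) and 0.13 (*MVK*) in REH and between -0.06 (*IDI1*) and 0.12 (*MVK*) in 697. In REH, *MVD* had 38.7, 45.9 and 43.5 (control) and 47.1, 46.5 and 42.7 (siRNA) CPM and *FDPS* 251, 229 and 224 (control) and 243, 245 and 251 (siRNA) CPM. In 697, *MVD* had 28.7, 36 and 39.3 (control) and 37.9, 37 and 31.4 (siRNA) CPM and *FDPS* 256, 246 and 250.2 (control) and 257, 269 and 244 (siRNA) CPM. All 4 of these pairs of groups overlapped.

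The sterol branch turns farnesyl diphosphate into cholesterol. All 11 of its genes were above 0 in RCH-ACV, and 3 passed the test, 1 at the first cyclisation and 2 near the end of the pathway. *DHCR7* (chr11:71139239-71163914), the reductase of a last step, had 67.6, 65.9 and 64.4 CPM in controls and 89.7, 94.3 and 85.3 CPM with siRNA. This was the highest log2 fold change of the 30 genes in RCH-ACV, 0.45 ± 0.06 or 1.37-fold (adjusted p = 0.000177). *EBP* (chrX:48380187-48387104), a sterol isomerase, rose from 65.2, 65.1 and 61.3 to 76, 82.1 and 71 CPM (0.27 ± 0.06, adjusted p = 0.0173). *LSS* (chr21:47608055-47648738), which closes the sterol ring system, had control values of 92.3, 91 and 90.4 CPM, the siRNA values being 111, 111 and 103 CPM (0.25 ± 0.05, adjusted p = 0.00788). All 3 genes separated the groups fully. *FDFT1*, the squalene synthase, missed the threshold narrowly with 0.15 ± 0.05 (adjusted p = 0.0547), and *SQLE*, the squalene epoxidase, had 0.08 ± 0.04 (adjusted p = 0.284). *HSD17B7* and *TM7SF2*, both reductases with low counts, had 0.33 ± 0.14 and 0.25 ± 0.15, estimates with wide errors that did not pass. *CYP51A1*, *MSMO1* and *NSDHL*, the demethylation enzymes, had 0.09, 0.07 and 0.08, and *SC5D*, a desaturase, 0.04.

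None of the 11 sterol branch genes passed in REH or 697. In REH, *DHCR7* had 99.6, 93.7 and 93.9 (control) and 102, 91.2 and 101 (siRNA) CPM (0.05 ± 0.05) and *LSS* 137, 131 and 135 (control) and 139, 133 and 135 (siRNA) CPM (0.02 ± 0.04), both overlapping. *EBP* in REH lay at 90.3, 82.6 and 82.1 CPM in controls and 90.4, 92.5 and 90.3 CPM with siRNA, with the nearest values of the groups almost touching (0.10 ± 0.05, adjusted p = 0.309). In 697, *DHCR7* had 125, 119.9 and 134 (control) and 130.1, 137 and 135 (siRNA) CPM (0.09 ± 0.06), *LSS* 128, 149 and 141 (control) and 151, 153 and 135 (siRNA) CPM (0.07 ± 0.08) and *EBP* 80.1, 76.5 and 80.8 (control) and 87.5, 76.6 and 84.3 (siRNA) CPM (0.06 ± 0.07). These groups all overlapped in 697.

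Of the 7 fatty acid genes, 2 rose in RCH-ACV. *FASN* (chr17:80036214-80056170), the fatty acid synthase, had 536, 461 and 564 CPM in controls and 653, 635 and 610.2 CPM with siRNA, apart but with controls spread widely (0.28 ± 0.06, adjusted p = 0.00545). It was 0.14 after correction for transcript GC content and was not called in the fit over 18 samples (adjusted p = 0.0577). *SCD* (chr10:102106990-102124583), the desaturase that makes oleate, went from 830.4, 844 and 775 to 880.0, 921 and 905 CPM (0.14 ± 0.04, adjusted p = 0.0307). *ACLY*, which supplies acetyl-CoA, did not pass although its groups did not overlap (0.11 ± 0.04, adjusted p = 0.0868). *ACACA*, the carboxylase, had 0.03 ± 0.07, the desaturases *FADS1* and *FADS2* 0.07 ± 0.04 and 0.05 ± 0.04, and the elongase *ELOVL6* -0.06 ± 0.06.

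In REH, *FADS1* (chr11:61567099-61596790) rose, from 385, 364 and 377 to 401, 405 and 419 CPM without overlap (0.13 ± 0.03, adjusted p = 0.0275). It lies across *FADS2* on the opposite strand, and the strand setting of the counting is not given in the sources used here, so reads of the pair may be mixed. The remaining 6 fatty acid genes of REH were below 0 and did not pass. *FADS1* had 559, 529 and 512 (control) and 536, 525 and 540.2 (siRNA) CPM in 697 and 404, 422 and 398 (control) and 413, 429 and 440.3 (siRNA) CPM in RCH-ACV, with overlap in both. *FASN* had 224, 295 and 246 (control) and 278, 232 and 234 (siRNA) CPM in REH and 425, 478 and 543 (control) and 509, 472 and 454 (siRNA) CPM in 697, and *SCD* had 282, 264 and 255 (control) and 271, 251 and 274 (siRNA) CPM in REH and 1081, 997 and 982 (control) and 988, 974 and 1017 (siRNA) CPM in 697. Neither gene separated the groups in these lines. In 697 all 7 were below 0, *ELOVL6* the lowest at -0.14, and none passed. *ELOVL6* and *FADS2* (-0.11) had every siRNA sample below every control in 697.

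With the 18 samples in 1 fit, 5 of the 30 genes rose over the 3 lines and none fell, where 8.14% of all 14026 genes were called and 3.31% were called higher. They were *INSIG1* (0.21 ± 0.04, adjusted p = 0.00235), *DHCR7* (0.18 ± 0.05, adjusted p = 0.0136), *STARD4* (0.17 ± 0.05), *EBP* (0.14 ± 0.04) and *FDFT1* (0.10 ± 0.03). This fit uses the same samples as the fits by line and is no separate evidence. *INSIG1* and *DHCR7* passed in all 18 fits that left out 1 sample, *STARD4* and *EBP* in 15 and *FDFT1* in 12. The count of 5 became 2 without RCH-ACV control replicate 1 or 3 or *SOX11* siRNA replicate 2, and 8 without 697 *SOX11* siRNA replicate 3.

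Whether the lines differed in the effect was tested with the interaction of siRNA and line. Of the 30 genes 1 passed, *DHCR7* (adjusted p = 0.0147), where 0.734% of all genes did. The siRNA effect on it was 0.05 on the log2 scale for REH, 0.09 for 697 and 0.45 for RCH-ACV. The call was lost under several alternatives, among them correction for transcript GC content (adjusted p = 0.0747) and 3 of 18 fits without 1 sample, those without RCH-ACV control replicate 2 or 3 or *SOX11* siRNA replicate 2. Over these 18 fits the adjusted p lay between 0.00638 and 0.0994. The next lowest interaction values were those of *SREBF2* (adjusted p = 0.126) and *INSIG1* (adjusted p = 0.293). For 29 of the 30 genes a difference between lines was thus not shown, although 10 genes were called in RCH-ACV and not in REH, and 11 in RCH-ACV and not in 697.

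In RCH-ACV, 2 of the 3 siRNA libraries were shifted toward GC-rich transcripts, and siRNA replicate 3 lay within the range of the controls. Genes were put in 4 equal groups by transcript GC content. The median log2 deviation of the highest group minus that of the lowest was -0.0296, -0.138 and -0.00768 in the controls. In the siRNA samples it was 0.1, 0.136 and -0.0369. The 697 libraries spread more widely, with -0.18, 0.0678 and 0.133 in controls and 0.0781, 0.0432 and -0.146 with siRNA. There the lowest value of each group belongs to the library that stood apart. REH had -0.0601, 0.04 and 0.0169 in controls and 0.055, 0.0242 and -0.082 with siRNA. The transcripts of *FASN* (65.3% GC), *MVD* (63.7%) and *SREBF1* (63.2%) are GC-rich, and those of *INSIG1* (44.8%) and *STARD4* (34.4%) are not. With each library corrected for GC content in 20 bins, an alternative chosen after the data were seen, RCH-ACV again had 11 calls, 9 of them shared. Of all genes in RCH-ACV, 1096 were called with the correction, against 973 without it. The estimates of *FASN* (0.14) and *SREBF1* (0.16) were smaller and both stayed called. *SREBF2* (0.09, adjusted p = 0.224) and *FDPS* (0.13, adjusted p = 0.059) were lost. *FDFT1* (0.15) and *HMGCS1* (0.15) were gained, while *INSIG1* (0.39), *STARD4* (0.32) and *DHCR7* (0.38) stayed called. The part of GC content in the uncorrected rises was not tested beyond this correction.

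Single libraries weighed on the count in RCH-ACV. Leaving out 1 library at a time gave 5 calls without control replicate 1, 5 without control replicate 2 and 6 without control replicate 3. It gave 4 without *SOX11* siRNA replicate 1, 3 without replicate 2 and 14 without replicate 3, the library that stood apart. The number of all genes called moved as well, from 973 with every library to between 386 (without siRNA replicate 2) and 543 in the first 5 of these fits, and to 2479 without siRNA replicate 3. *INSIG1*, *DHCR7* and *FASN* were called in all 6 of these fits, *LSS* in 5, *STARD4* in 3, and the other 6 genes in 1 or 2. The log2 fold changes stayed within 0.33 to 0.40 for *INSIG1*, 0.40 to 0.49 for *DHCR7* and 0.20 to 0.34 for *FASN*. In REH both calls were lost without control replicate 3 and without *SOX11* siRNA replicate 3, and 4 genes were called without control replicate 1. *INSIG1* was called in 4 of the 6 REH fits without 1 library and *FADS1* in 1 of the 6, the fit without control replicate 1. In 697 none was called whichever library was left out, those that stood apart included.

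A further 40 genes of sterol and fatty acid metabolism were listed for comparison, 30 of SREBP processing, uptake and fatty acid enzymes and 10 of sterol efflux, storage and LXR signalling. Their lists were drawn up with earlier results of these data known. Of the 37 tested in each line, REH had 1 call, and 697 and RCH-ACV had 0 (backgrounds 4.65%, 0.559% and 7.51%). In RCH-ACV 11 of the 37 had an unadjusted p under 0.05, and in 697 2 did. The share of all genes by this unadjusted threshold is not given here, so these counts have no background. DESeq2 called 0 of the 37 in RCH-ACV and in 697, against 582 and 85 of all genes. The gene called in REH was *ABCG1*, a sterol exporter induced by LXR (0.49 ± 0.08, adjusted p = 0.000766). Its log2 fold change was 0.31 ± 0.10 in RCH-ACV (adjusted p = 0.0644). Over the 3 lines together, 4 of 38 were called, a share near the 8.14% of all genes: *ABCG1* rose, and *MBTPS1*, the protease that makes the first cut in SREBP (-0.11 ± 0.03), *HACD3*, a dehydratase of fatty acid elongation (-0.13 ± 0.03), and *SOAT1*, which esterifies cholesterol (-0.12 ± 0.04), fell. The median log2 fold change of these listed genes in RCH-ACV was -0.00, against 0.14 for the 30 synthesis genes.

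The second question was how the lines differ in these genes without the knockdown, over the 9 control samples in 1 fit. The 3 comparisons share their control samples in pairs. Most of the transcriptome differs between any of these lines, so the counts have a high background. REH and 697 differed in 21 of the 30 genes, where 76.2% of all 13686 genes differed. Of these, 16 were lower in REH, and 36.9% of all genes were called lower in REH. REH and RCH-ACV differed in 23 (background 73.7%), 13 higher and 10 lower in REH (background of lower genes 37.6%). RCH-ACV and 697 also differed in 23 (background 64.2%), and 21 were lower in RCH-ACV, where 30.9% of all genes were. With library size alone in place of TMM, the median of all genes moved from 0.02 to 0.15 for REH minus 697 and the split became 9 higher and 12 lower, and for REH minus RCH-ACV it became 16 higher and 8 lower, so the balance of higher and lower calls for REH moved with the scaling. Over the *SOX11* siRNA samples in place of the controls, the calls numbered 21 for REH and 697 (6 higher, 15 lower in REH), 22 for REH and RCH-ACV (11 and 11) and 21 for RCH-ACV and 697 (5 higher, 16 lower in RCH-ACV). Of all genes, 10528, 10282 and 8987 were called in these samples, against 10429, 10090 and 8792 in the controls.

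By mean level, 697 was the highest line for 17 of the 30 genes, REH for 10 and RCH-ACV for 3. RCH-ACV was lowest for 17, REH for 12 and 697 for 1, *CYP51A1*. All 3 pairs of lines differed for 13 genes. *FDPS* and *HSD17B7* passed in no pair. RCH-ACV had the lowest mean for 9 of 11 sterol branch genes and 5 of 7 mevalonate genes. REH had the lowest mean for 6 of 7 fatty acid genes. The order of the lines was counted for the 30 genes only, so these counts have no background. They use TMM scaling, and the balance of calls for REH moved with the scaling, as given above. For *MVK*, *MVD*, *FDFT1*, *NSDHL*, *HSD17B7* and *SC5D*, RCH-ACV was lowest by mean alone, since its difference from the middle line did not pass.

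**Figure D4:**
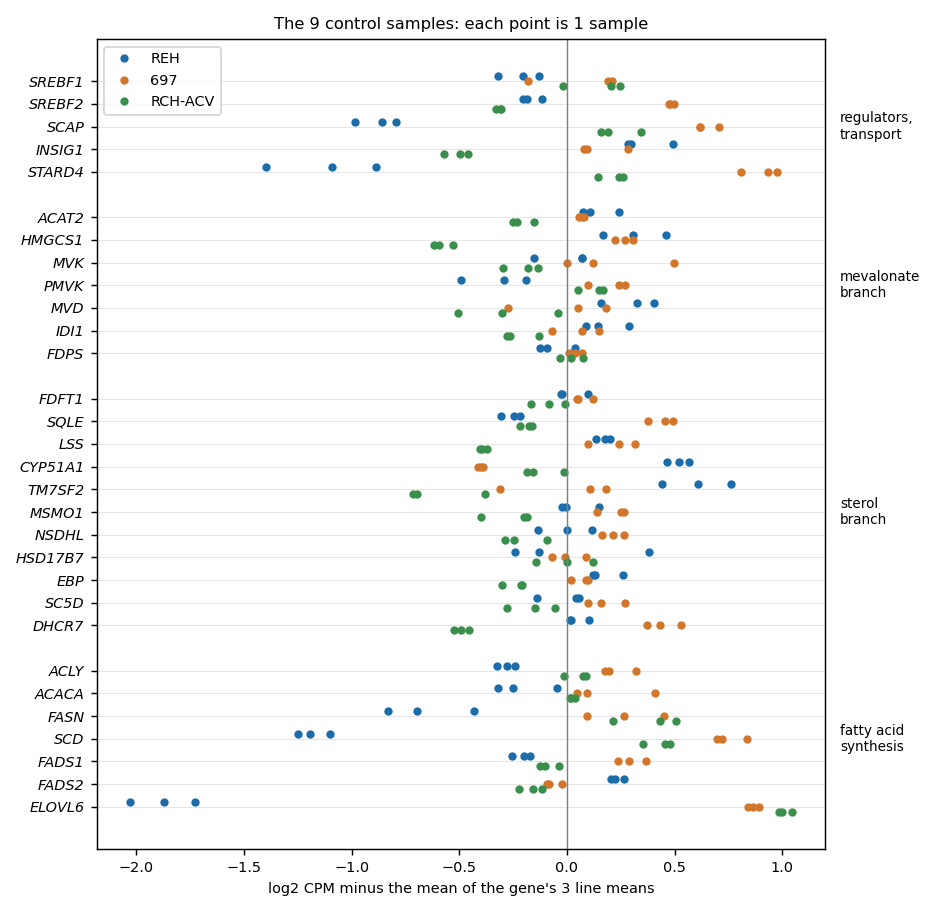
Log2 CPM of each of the 9 control samples minus the mean of the gene's 3 line means (horizontal axis), for the 30 genes by role, with colours for the lines. REH lies far to the left for *ELOVL6*, *SCD*, *STARD4* and *SCAP*. By mean, RCH-ACV lies left of both other lines for most mevalonate and sterol genes, for some of them by little.

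Differences past 1 on the log2 scale were few. Between REH and 697 there were 4, all lower in REH, where 30.6% of all genes were past 1 in either direction. Between REH and RCH-ACV there were 6, 5 of them lower in REH (background 25.7%). RCH-ACV and 697 had 0 of 30 past 1, with a background of 20.4%.

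The fatty acid genes carried the largest of these differences. *ELOVL6* (chr4:110967002-111120355), which elongates palmitate, had 15.9, 12.9 and 14.4 CPM in the REH controls, 96, 94.2 and 97.8 CPM in 697 and 104, 109 and 105 CPM in RCH-ACV. It was 6.75 times as high in 697 as in REH (log2 difference REH minus 697 -2.76 ± 0.07, adjusted p = 1.92e-16) and 7.47 times as high in RCH-ACV (-2.90 ± 0.07, adjusted p = 9.52e-17). The difference between RCH-ACV and 697 was small (0.15 ± 0.06, adjusted p = 0.0373). *SCD*, with 282, 264 and 255 CPM in REH, 1081, 997 and 982 CPM in 697 and 830.4, 844 and 775 CPM in RCH-ACV, differed by -1.94 ± 0.05 between REH and 697 and by -1.62 ± 0.05 between REH and RCH-ACV. *FASN* had 224, 295 and 246 CPM in REH, 425, 478 and 543 CPM in 697 and 536, 461 and 564 CPM in RCH-ACV, so that REH lay below both and those lines overlapped (-0.93 ± 0.09 and -1.04 ± 0.09 for REH minus 697 and minus RCH-ACV). All 7 fatty acid genes were called in both comparisons with REH, and 6 were lower in REH. *FADS2* was the exception, at 697 ± 15.3 CPM in REH, 567 ± 14.1 CPM in 697 and 529.6 ± 19.1 CPM in RCH-ACV (mean ± SD, n = 3).

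Among the regulators, *SCAP* and *STARD4* were the low ones in REH. *STARD4* had 27.9, 24.2 and 19.6 CPM in REH, 101, 98.4 and 90.0 CPM in 697 and 61.7, 60.9 and 57 CPM in RCH-ACV, differing by -2.01 ± 0.09 from 697 and -1.32 ± 0.09 from RCH-ACV. *SCAP* had 37.1, 40.5 and 42.3 CPM in REH, 113, 113 and 119.6 CPM in 697 and 93.1, 81.9 and 83.6 CPM in RCH-ACV (-1.54 ± 0.07 and -1.13 ± 0.07). Both genes had separate groups in every pair of lines, in the order 697, RCH-ACV, REH. *SREBF2* ran in another order, at 557 ± 5.06 CPM in 697, 354 ± 11.9 CPM in REH and 319.6 ± 2.45 CPM in RCH-ACV, and *INSIG1* in yet another, at 334 ± 27.6 CPM in REH, 289.6 ± 23.2 CPM in 697 and 183 ± 7.35 CPM in RCH-ACV (mean ± SD, n = 3). *SREBF1* was lower in REH than in RCH-ACV (-0.38 ± 0.09) and 697 (-0.30 ± 0.09). The REH and 697 controls overlapped, the difference was -0.17 with library size alone, and over the siRNA samples it was -0.13 and not called (adjusted p = 0.116). RCH-ACV and 697 did not differ beyond their spread in the controls (RCH-ACV minus 697 0.07 ± 0.09, adjusted p = 0.474).

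By mean level, most mevalonate and sterol genes were lowest in RCH-ACV, the line in which some of them rose with *SOX11* siRNA. For several of these, named above, RCH-ACV was not shown to lie below the middle line. The order of the lines and the siRNA effect use the same RCH-ACV control samples, so they are not separate observations. *DHCR7* had control means of 126 ± 6.98 CPM in 697, 95.7 ± 3.38 CPM in REH and 65.9 ± 1.58 CPM in RCH-ACV, and RCH-ACV minus 697, -0.93 ± 0.06, was the lowest difference of the 30 genes between these lines. With *SOX11* siRNA, RCH-ACV had 89.7 ± 4.51 CPM of *DHCR7* and the same difference was -0.58. *HMGCS1* had 443 ± 45.1 CPM in REH, 429 ± 12.3 CPM in 697 and 238 ± 7.62 CPM in RCH-ACV, the first 2 of which were not shown to differ (REH minus 697 0.04 ± 0.06, adjusted p = 0.531). *TM7SF2*, a sterol reductase, was the member past 1 with the higher level in REH, at 24.6, 27.7 and 30.7 CPM against 13.9, 11 and 11.2 CPM in RCH-ACV (1.17 ± 0.13) and 14.6, 19.5 and 20.5 CPM in 697. It overlaps *VPS51* on the same strand, so its reads may be shared. *CYP51A1*, the lanosterol demethylase, was the only one of the 30 lowest in 697, at 60.9 ± 0.555 CPM against 74.2 ± 4.86 CPM in RCH-ACV and 115 ± 4.04 CPM in REH. *SQLE* was highest in 697 at 288 ± 12 CPM, while REH (177 ± 5.49 CPM) and RCH-ACV (186 ± 3.95 CPM) did not differ beyond their spread (REH minus RCH-ACV -0.08 ± 0.05, adjusted p = 0.116).

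The spread between control replicates, as a coefficient of variation, had a median over the 30 genes of 6.62% (REH), 5.36% (697) and 4.21% (RCH-ACV), against 5.48%, 7.98% and 5.75% over all genes tested. It was widest for *HSD17B7* in REH (24.1%), *MVK* in 697 (18.6%) and *MVD* in RCH-ACV (16.3%). Of the 40 other listed genes, 38 entered the comparison of control samples, and 29 differed between REH and 697 (background 76.2%), 21 between REH and RCH-ACV (background 73.7%) and 29 between RCH-ACV and 697 (background 64.2%).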

How the data were processed

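RNA-seq was run on 18 samples of 3 cell lines, with *SOX11* or control siRNA and 3 replicates each, which the study describes as independent. The authors checked read quality with FastQC 0.10.1 and trimmed and filtered reads with the FASTX Toolkit. They aligned reads with STAR 2.5.3a to hg19 and deposited raw counts per RefSeq transcript, made with HOMER. The kit keeps strand, and the strand setting of the counting is not given in the sources used here, so reads of overlapping genes may be mixed (*SREBF1* with *RAI1*, *ACAT2* with *TCP1* and *SOD2*, *MVK* with *MMAB*, *FADS1* with *FADS2*, *CYP51A1* with *AKAP9*, *STARD4* with its antisense gene). *TM7SF2* and *VPS51*, and *EBP* and a readthrough gene, overlap on the same strand and can share reads. No gene overlaps *HSD17B7*, but its reads may also match its pseudogene copies elsewhere.

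RefSeq identifiers were matched to symbols for 98.0% of transcripts, which hold 99.0% of the counts, and of several transcripts of a gene, that with most counts in all 18 samples was kept. Counts were tested with edgeR 4.0.16 (R 4.3.3; TMM, filterByExpr, quasi-likelihood F-test, two-sided, Benjamini-Hochberg over all genes tested, threshold 0.05) in each line, over the 18 samples with line as covariate, for the interaction of siRNA with line, and between lines over the 9 control samples. SE, p and adjusted p in the text come from these fits unless an exact permutation test is named, which compared mean log2 CPM with an offset of 0.01. CPM values used TMM library sizes. Total counts per sample had a median of 8759235.

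Alternatives were other scalings, other filters, DESeq2 1.42.0, the replicate number as a block, 1 fit over all samples, another choice of transcript and leaving out each replicate. A correction for transcript GC content in 20 bins was added after the data were seen. The GC content was known for 94.6% of genes and all 30 members. The tests were tried on simulated counts.

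Values in every sample are given for *SOX11*, for the SREBP genes with *SCAP* and *INSIG1*, for members called with siRNA in any line, and for the members past 1 on the log2 scale between lines, up to 3 in each direction per pair. Line means of further members, and *FASN* between lines, were chosen after their values were seen. The members and lists were chosen with earlier results of these data known. Positions are GENCODE genes on hg19, and promoter sequences are from RefSeq on GRCh38.p14. Python 3.11.15, pandas 2.3.3, numpy 2.4.6, scipy 1.17.1 and matplotlib 3.10.9 made the tables and plots.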

Additional observations from a re-analysis of the deposited data

Results flagged for a closer look

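The effect of *SOX11* siRNA on *DHCR7* differed between the lines by the test of the interaction itself (edgeR's quasi-likelihood test, adjusted p = 0.0147 over all genes tested). The log2 fold change was 0.05 ± 0.05 for REH, 0.09 ± 0.06 for 697 and 0.45 ± 0.06 for RCH-ACV, and the siRNA samples lay above all controls only in RCH-ACV, in 3 of 3 samples. DESeq2 gave an adjusted p of 0.00332 and the GC correction 0.0747, and the range without 1 sample was 0.00638 to 0.0994.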

How the results depend on the processing

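The counts of members called were the same within 1.5 times under RLE size factors, library size alone, the stricter filter and the other choice of transcript. In REH the count of 2 became 0 with DESeq2, 0 in the fit over 18 samples and 1 with the replicate block, and the count of 11 in RCH-ACV became 7 in the fit over 18 samples, without *FASN*, *FDPS*, *SCD* and *SREBF1*. The count over the 3 lines, 5, became 8 without the filter on low counts and 9 with the GC correction. The interaction count of 1 became 3 without the filter, 0 with the replicate block (*DHCR7* at an adjusted p of 0.0599) and 0 with the GC correction. The number of all genes called moved as well. In REH it went from 594 to 313 with DESeq2, 228 in the fit over 18 samples and 470 with the replicate block. In RCH-ACV it went from 973 to 783 in the fit over 18 samples. For the counts over the 3 lines and of the interaction, the numbers of all genes in these settings are not given here. The causes were not tested.

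Leaving out 1 replicate gave 0 to 4 calls in REH, 0 to 0 in 697 and 3 to 14 in RCH-ACV. It gave 2 to 8 over the 3 lines, the 2 without RCH-ACV control replicate 1 or 3 or *SOX11* siRNA replicate 2 and the 8 without 697 *SOX11* siRNA replicate 3. The interaction had 0 to 1, and the control pairs 17 to 22 (REH and 697), 22 to 24 (REH and RCH-ACV) and 21 to 24 (RCH-ACV and 697). For the 25 single log2 values, 382 of 452 alternative fits kept the direction and the call, 70 kept the direction and lost the call, and 0 reversed. Of the 231 fits that left out 1 library, 51 lost the call, and of the other 221, 19 did. All these fits reuse the same samples, so the lack of reversals is no separate evidence.

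Replicate numbers did not pair the samples, since the correlation of same-numbered deviations ran from -0.15 to 0.156. With the replicate block, calls numbered 1 in REH, 0 in 697, 9 in RCH-ACV (without *MVD* and *SREBF2*) and 4 over the 3 lines (without *STARD4*). Of all genes, 470, 29 and 700 were called with the block in REH, 697 and RCH-ACV, against 594, 68 and 973 without it.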
